A study of Mus musculus with 6 samples.

Results

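The Ly6 genes described here encode small cell surface antigens: Ly6a, Ly6c1, Ly6c2, Ly6d, Ly6e, Ly6g and Ly6k. Every probe set of the array whose platform annotation names 1 of these 7 genes was taken, which gave 6 of the 45037 probe sets tested. Ly6d had 1 probe set, Ly6e had 2 and Ly6k had 2, each with a single gene symbol, and 1 further probe set carried the symbols of both Ly6c1 and Ly6c2. The annotation used here pairs no probe set with Ly6a or Ly6g, so these members are not analysed here.

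RNA came from whole spleens of adult F1 females of 2 crosses between inbred strains. FVB/NJ was a parent of both crosses, and the other parent was AKR/J for 3 animals and DBA/2J for 3, here called AKR/J F1 and DBA/2J F1 mice, with an Affymetrix array for each spleen. All animals thus carried a genome copy from FVB/NJ, and a signal is the sum over both copies. No treatment is named besides euthanasia under Avertin anaesthesia. The comparison asks which transcripts differ between these genotypes at baseline. Differences are given as AKR/J F1 minus DBA/2J F1 on the log2 scale, and positive values are higher in AKR/J F1 mice.

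Ly6 proteins are short, cysteine-rich domains held in a compact disulfide-bonded fold and, in most members, tied to the outer cell membrane by a glycosylphosphatidylinositol (GPI) anchor. In blood and lymphoid organs they are used as markers: Ly6c of monocytes and of some T cells, plasma cells and endothelial cells, Ly6d of B cells and thymocytes, Ly6e of immature thymocytes and activated lymphocytes, and Ly6g of neutrophils. Several are induced by interferons. Ly6k is best known from the testis, where it takes part in sperm function.

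Ly6c1 and Ly6c2 are close copies on chromosome 15, and a signal from the single probe set named for both cannot be assigned to either gene. To show where their upstream sequences differ, the 250 bases before the most upstream annotated start of each are given here from RefSeq (GRCm38.p6, minus strand, 5′ to 3′). Ly6c1 lies at chr15:75048838-75049087 and Ly6c2 at chr15:75111972-75112221. Capitals mark bases without an identical partner in the part where the aligned pair overlaps.
Ly6c1: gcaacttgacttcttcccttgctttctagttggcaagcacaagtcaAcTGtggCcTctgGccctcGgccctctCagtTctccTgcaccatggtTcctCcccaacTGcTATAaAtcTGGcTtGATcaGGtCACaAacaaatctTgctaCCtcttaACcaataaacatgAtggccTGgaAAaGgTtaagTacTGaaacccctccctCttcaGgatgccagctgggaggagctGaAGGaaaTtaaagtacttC
Ly6c2: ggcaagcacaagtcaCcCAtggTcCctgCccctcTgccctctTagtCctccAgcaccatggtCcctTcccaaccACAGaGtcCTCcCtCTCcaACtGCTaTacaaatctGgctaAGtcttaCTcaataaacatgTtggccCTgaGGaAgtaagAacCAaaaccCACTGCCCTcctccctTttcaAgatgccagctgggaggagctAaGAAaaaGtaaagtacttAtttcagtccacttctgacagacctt

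In the overlap 164 of 228 alignment columns were identical (71.9%). That likeness is not particular to this pair: aligned in the same way, Ly6c1 and Ly6g had 172 of 229 identical columns (75.1%), and Ly6c2 and Ly6g had 133 of 199 (66.8%). The TATA box letters TATAAA were found once in the Ly6c1 window, starting 143 bases before the start, and 0 times in the Ly6c2 window. The Ly6g window also held these letters once, starting 99 bases before the start. On either strand they occur in 12.4% of the 32851 promoter windows in the table, each searched over the same 250 bases before the start. The gamma-activated site bound by interferon-activated factors (TTCNNNGAA, on either strand) had 0 matches in the Ly6c1, Ly6c2 and Ly6g windows and occurs in 7.02% of all. A match describes the letters only. Promoter windows were listed for 3 of the 7 members, Ly6c1, Ly6c2 and Ly6g, in the table used here.

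The differences between the crosses in these antigens were small. In limma, with a threshold of 0.05 on p adjusted by Benjamini-Hochberg over the whole array, 1 of the 6 probe sets passed, a dim one of Ly6k that was higher in DBA/2J F1 mice. Over all probe sets 10.4% passed, 5.14% higher in AKR/J F1 mice and 5.26% higher in DBA/2J F1 mice. Of these calls 49.4% were higher in AKR/J F1 mice, and 61.9% with each array centred on its median. The arrays of the crosses did not overlap at 3 of the 6 probe sets, those of Ly6c1 and Ly6c2, of Ly6d, and the dim one of Ly6k, where 36.1% of all probe sets did not overlap. The largest difference of the 6 was 1.29-fold, at that Ly6k probe set.

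The arrays were closely scaled, with medians between 5.04 and 5.10. The SD of an array's values was 2.32 to 2.34 in AKR/J F1 mice and 2.26 to 2.28 in DBA/2J F1 mice. Among dim probe sets, those whose mean over the arrays is at or below the 40th percentile (4.33), 71.0% of the differences were negative with a median of -0.087, against a median of 0.058 above that level. DBA/2J replicate 3 stood apart in transcripts of pancreatic acinar cells, digestive enzyme genes whose mean level was 6.26 there and 13.32 to 13.93 on the other arrays. The largest values of those other arrays were 14.37 to 14.56, so they are the ones with a strong acinar signal. Its source was not tested, and the cell type lists were not corrected for it. A fit without DBA/2J replicate 3 keeps the arrays with that signal. Member differences, the family and neighbour counts and the cell type lists are also given without DBA/2J replicate 3. Without it 2.78% of all probe sets passed. Whole spleen was measured, so fewer cells of a type and less RNA per cell cannot be told apart.

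At the shared probe set of Ly6c1 and Ly6c2 (1421571_a_at), values were 10.61, 10.53 and 10.53 in AKR/J F1 mice and 10.34, 10.17 and 10.28 in DBA/2J F1 mice. All 3 AKR/J F1 arrays lay above all 3 of DBA/2J F1 mice. The means ± SD were 10.56 ± 0.043 and 10.26 ± 0.088 (n = 3 each), a difference of 0.29 ± 0.082 (SE; 95% interval 0.10 to 0.48), or 1.22-fold, with adjusted p = 0.0572 in limma. It lay just outside the threshold, and inside it with each array centred on its median (adjusted p = 0.0463), with dim probe sets left out (0.0459), with a trended and robust variance model (0.0295) and with array weights (0.0372). It stayed outside after quantile normalization (adjusted p = 0.103 in limma) and with the replicate number as a block (0.0678). The same held in all 6 fits that left out 1 array (0.0537 to 0.156). Without DBA/2J replicate 3 the difference was 0.30 (adjusted p = 0.123).

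Ly6d, historically known as the ThB antigen of B cells and thymocytes, had the same order of groups at its probe set (1416930_at). Values were 11.74, 11.84 and 11.77 in AKR/J F1 mice and 11.59, 11.31 and 11.51 in DBA/2J F1 mice. Again the groups did not overlap, and the lowest array was DBA/2J replicate 2, as for Ly6c1 and Ly6c2. The difference was 0.31 ± 0.094 (95% interval 0.097 to 0.53), or 1.24-fold, with adjusted p = 0.0681 in limma. It passed with a trended and robust variance model (adjusted p = 0.0320), with array weights (0.0374), and with 1 mean value per gene and adjustment over 18193 genes (0.0480). It did not pass with median centring (adjusted p = 0.0524 in limma), after quantile normalization (0.111) or with dim probe sets left out (0.0575). Nor did it pass with the replicate number as a block (0.0894) or in any of the 6 fits that left out 1 array (0.0510 to 0.175). Without DBA/2J replicate 3 the difference was 0.33 (adjusted p = 0.128).

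Ly6e, an interferon-induced antigen of thymocytes and activated lymphocytes that also limits the entry of several viruses, had overlapping groups at both of its probe sets. At 1453304_s_at, values were 12.90, 12.78 and 12.86 in AKR/J F1 mice and 12.79, 12.61 and 12.80 in DBA/2J F1 mice, and the middle of the range was shared. The difference was 0.12 ± 0.087 (95% interval -0.082 to 0.31; adjusted p = 0.391 in limma), and 0.15 without DBA/2J replicate 3 (adjusted p = 0.389). At 1439773_at, values were 10.81, 11.23 and 11.26 in AKR/J F1 mice and 10.99, 11.17 and 11.05 in DBA/2J F1 mice, so that AKR/J F1 mice held both the lowest array and the highest arrays. That difference was 0.029 ± 0.13 (95% interval -0.27 to 0.32; adjusted p = 0.899 in limma). Its sign turned under some settings, to -0.037 without AKR/J replicate 2, -0.051 without AKR/J replicate 3, -0.011 without DBA/2J replicate 1 and -0.0037 after quantile normalization, and it was 0.020 without DBA/2J replicate 3. Across the 6 arrays the Ly6e probe sets did not follow each other (Pearson's r = -0.40, as a description).

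The Ly6k probe sets gave different patterns over the arrays (Pearson's r = 0.11, as a description). At 1452855_at, well above the dim level, values were 7.98, 7.39 and 8.01 in AKR/J F1 mice and 8.15, 8.22 and 7.43 in DBA/2J F1 mice. AKR/J replicate 2 and DBA/2J replicate 3 were low and the other 4 arrays high, so that most of the spread lay within the crosses. The difference was -0.14 ± 0.24 (95% interval -0.68 to 0.41; adjusted p = 0.723 in limma). It was 0.065 without AKR/J replicate 2, 0.0061 without DBA/2J replicate 2 and -0.39 without DBA/2J replicate 3 (adjusted p = 0.236).

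The other Ly6k probe set, 1454071_at, stood at 2.95, 3.05 and 3.14 in AKR/J F1 mice and 3.45, 3.35 and 3.45 in DBA/2J F1 mice. The groups did not overlap, at a mean level at the 21.2 percentile of all probe sets. The difference was -0.37 ± 0.085 (95% interval -0.57 to -0.18), or 1.29-fold higher in DBA/2J F1 mice, with adjusted p = 0.0346 in limma. Among the 18015 dim probe sets, 22.3% had all DBA/2J F1 arrays above all AKR/J F1 arrays, 4.21% passed as higher in DBA/2J F1 mice and 1.08% as higher in AKR/J F1 mice. After quantile normalization, which gives all arrays the same distribution, the difference was -0.27 and did not pass (adjusted p = 0.0905). It did not pass in any of the 6 fits that left out 1 array (adjusted p = 0.0575 to 0.104, and 0.0955 without DBA/2J replicate 3).

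**Figure D1:**
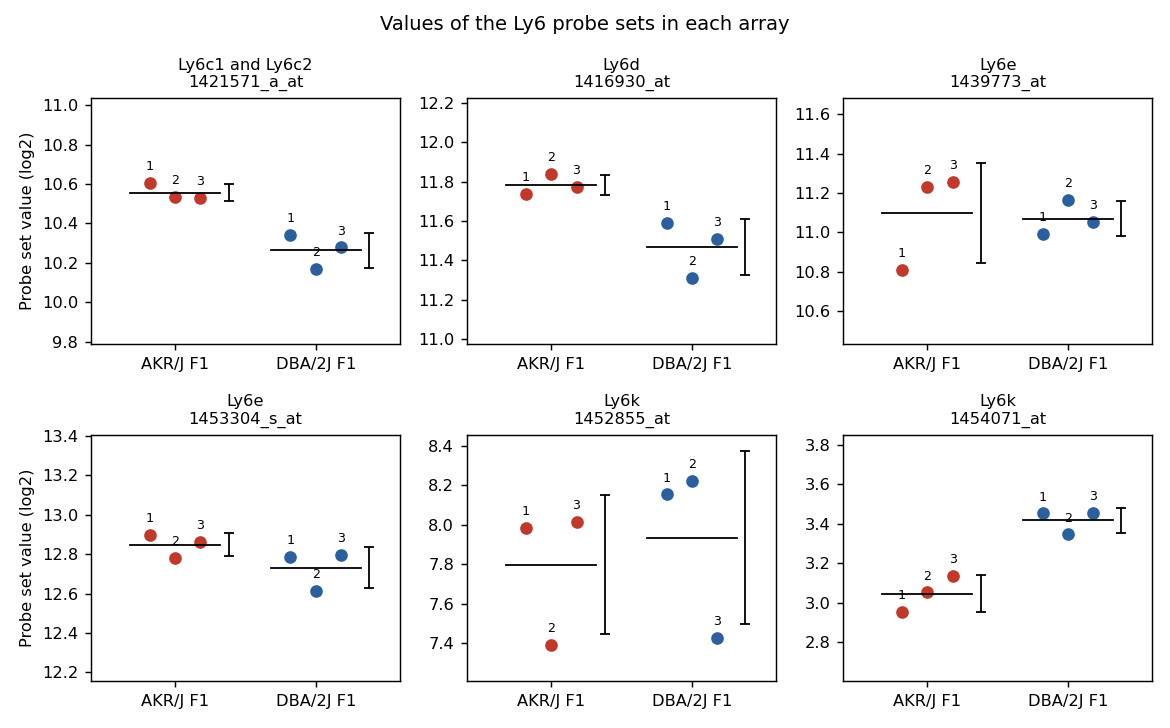
Values of the 6 Ly6 probe sets (log2, vertical axis) in AKR/J F1 mice (red) and DBA/2J F1 mice (blue), with replicate numbers beside the points, a line at the group mean and a bar of ± 1 SD at its right (n = 3 each). Every panel spans the same height on the log2 scale. The groups separate for Ly6c1 and Ly6c2, for Ly6d and for Ly6k at 1454071_at, while at Ly6k 1452855_at replicate 2 of AKR/J F1 mice (7.39) and replicate 3 of DBA/2J F1 mice (7.43) lie below the rest.

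The other genes of the Ly6 and urokinase receptor (uPAR) domain family gave 35 probe sets for 28 of 39 listed genes. Of these probe sets 0 were higher in AKR/J F1 mice, 3 were higher in DBA/2J F1 mice and 32 did not pass in limma (3 and 12 at an unadjusted p under 0.05), a share of 8.57% called against 10.4% of all probe sets. The median difference was -0.17, with 28 values negative and 7 positive, and -0.018 over all probe sets. The median stayed negative in all 12 alternatives (-0.19 to -0.10). The count past the threshold was 0 without AKR/J replicate 1, AKR/J replicate 3, DBA/2J replicate 2 or DBA/2J replicate 3, 1 without AKR/J replicate 2 and 5 without DBA/2J replicate 1, and it was 6 with array weights. Of the 28 genes, 14 were dim even at their brightest probe set, among them Ly6f, Ly6h and Ly6i, neighbours of the members on chromosome 15.

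Cd59a, which encodes an inhibitor of the complement membrane attack complex, was higher in DBA/2J F1 mice at both of its probe sets. At the first (1418710_at), Cd59a stood at 6.85, 6.97 and 6.94 in AKR/J F1 mice and 7.26, 7.57 and 7.72 in DBA/2J F1 mice, with no overlap. The difference was -0.60 ± 0.12 (adjusted p = 0.0239 in limma), and at the second (1429830_a_at) it was -0.45 ± 0.11 (adjusted p = 0.0395). Without DBA/2J replicate 3 the first was -0.50 (adjusted p = 0.0660), and it passed in 1 of the 6 fits that leave out an array, the one without DBA/2J replicate 1. Cd59a is carried by red cells, and 13 of 15 probe sets of the erythroid list were higher in DBA/2J F1 mice, with a mean marker level of 7.73 to 8.34 in AKR/J F1 mice and 9.22 to 9.99 in DBA/2J F1 mice. The part of these cells in the Cd59a difference was not tested.

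Spaca4, named for the sperm acrosome, stood at 5.21, 5.43 and 5.17 in AKR/J F1 mice and 5.66, 5.73 and 5.71 in DBA/2J F1 mice, again without overlap. The difference was -0.43 ± 0.093 (adjusted p = 0.0295 in limma), and -0.42 without DBA/2J replicate 3 (adjusted p = 0.0809), and it passed in 2 of the 6 fits that left out an array. Lynx1, a modulator of nicotinic acetylcholine receptors whose gene lies beside Ly6d, did not pass, with differences of 0.50 ± 0.14 and 0.36 ± 0.10 (adjusted p = 0.0552 and 0.0536). Lynx1 was picked out after its values were seen. Gpihbp1, which carries lipoprotein lipase across capillary walls, had 0.034 ± 0.11, and Plaur, the urokinase receptor, 0.16 ± 0.18, neither past the threshold.

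**Figure D2:**
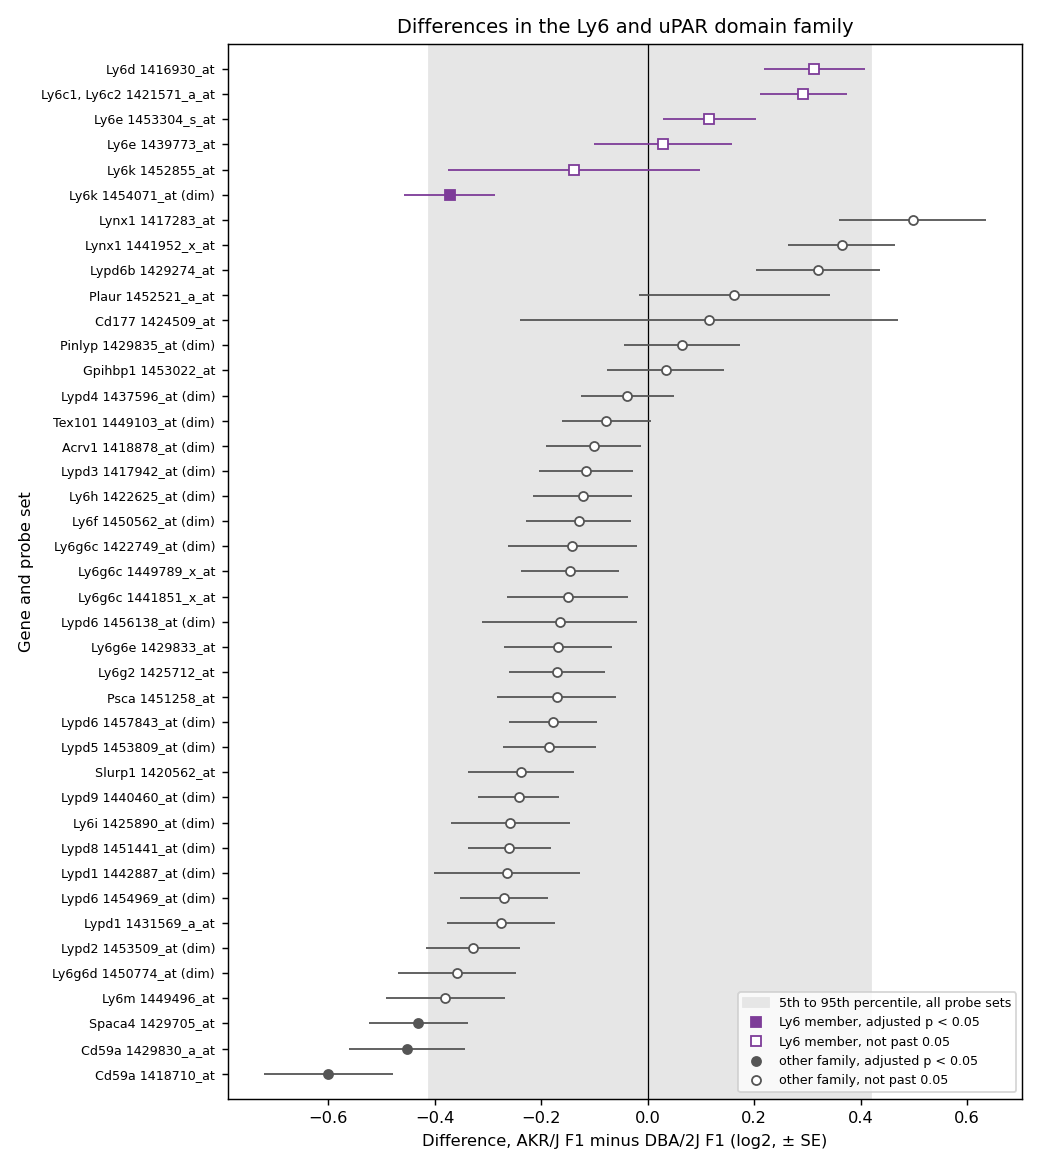
Difference between the crosses (log2, AKR/J F1 minus DBA/2J F1, horizontal axis, ± SE) for the 6 Ly6 probe sets (purple squares) and the 35 probe sets of other family genes (grey circles), filled where the adjusted p was below 0.05. The grey band holds the 5th to 95th percentile of all probe sets, -0.41 to 0.42. All 6 Ly6 probe sets lie inside the band, and the 3 filled circles, those of Cd59a and Spaca4, lie beyond its lower edge.

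The members lie in 1 stretch of chromosome 15, with Ly6d first and Ly6g last in gene order. Within that stretch and the 20 protein-coding genes on each side there were 55 genes, of which 37 had a probe set with a single symbol. Of 48 probe sets of neighbours, members left out, 0 were higher in AKR/J F1 mice and 1 was higher in DBA/2J F1 mice in limma (2 and 15 at an unadjusted p under 0.05), a share of 2.08% against 10.4% of all. The median difference was -0.13 and the groups did not overlap at 17 of the 48, where 36.1% of all probe sets did not overlap. The probe set that passed belongs to Eef1d, a subunit of the nucleotide exchange factor of translation elongation. That probe set lay near the dim level of 4.33, with means of 3.99 in AKR/J F1 mice and 4.84 in DBA/2J F1 mice. Eef1d probe sets well above that level, at 9.30 and 10.44 in AKR/J F1 mice, did not pass. Eef1d differed by -0.85 ± 0.15 at 1459754_x_at (adjusted p = 0.0168 in limma; -0.87 and 0.0480 without DBA/2J replicate 3) and by -0.43, -0.13 and -0.14 at 3 others, which did not pass. The count of neighbours past the threshold was 3 with each array centred on its median, 4 after quantile normalization, 8 with array weights, 7 without DBA/2J replicate 1, 0 without AKR/J replicate 1 and 1 without DBA/2J replicate 3.

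**Figure D3:**
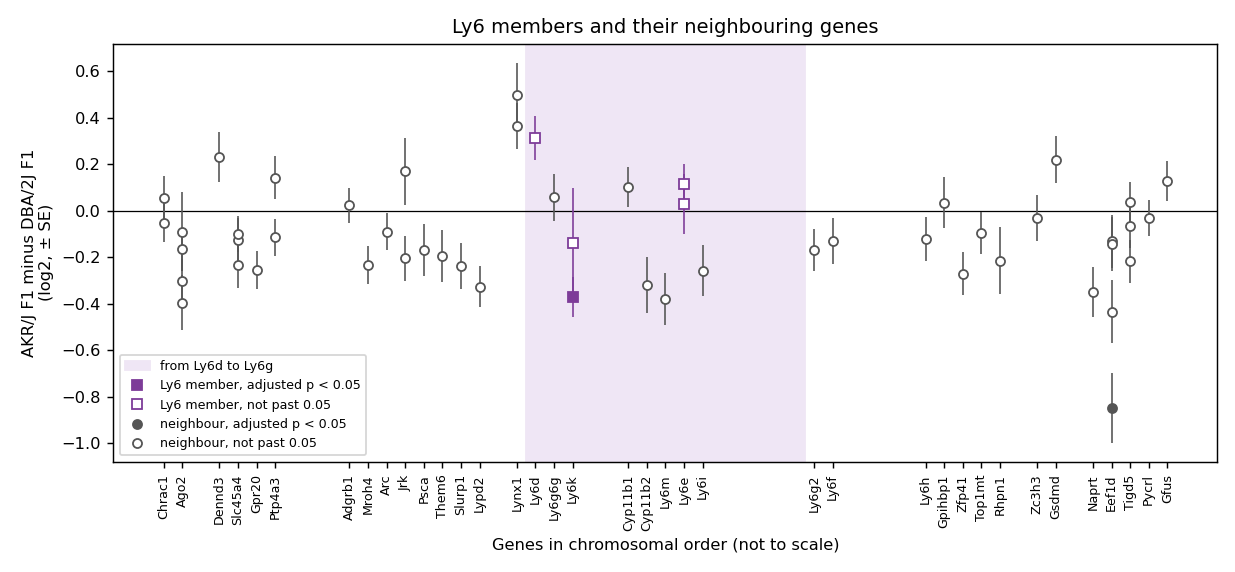
Differences (log2, AKR/J F1 minus DBA/2J F1, vertical axis, ± SE) of probe sets along chromosome 15 in gene order, which is not to scale, with Ly6 members as purple squares, neighbours as grey circles and the stretch from Ly6d to Ly6g shaded. Only probe sets with a single symbol are plotted, so the probe set shared by Ly6c1 and Ly6c2 is absent. The only filled neighbour, past an adjusted p of 0.05, is Eef1d at -0.85. Ly6d (0.31) and Lynx1 (0.50 and 0.36) stand side by side above 0.

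Transcripts of cells known to carry these antigens were measured on the same arrays. Of 25 probe sets of T cell genes, 13 were higher in AKR/J F1 mice and 1 in DBA/2J F1 mice (median 0.41), and the mean level of the 13 measured genes was 8.55 to 8.68 in AKR/J F1 mice and 8.08 to 8.19 in DBA/2J F1 mice. Cd8a and Cd8b1, the CD8 coreceptor chains of T cells on which Ly6c is used to tell subsets apart, each differed by 0.59 at the probe set with the smallest p. Of 19 probe sets of B cell genes, 5 were higher in AKR/J F1 mice and 0 in DBA/2J F1 mice (median 0.30), with levels of 10.47 to 10.62 and 10.18 to 10.45. The B cell genes Cd79a, of the antigen receptor, and Cr2, a complement receptor, differed by 0.36 and 0.45. The part of T cells and B cells in the Ly6d difference and in the Ly6c1 and Ly6c2 difference was not tested.

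Further cell types that can carry these antigens were described in the same way. Of 23 probe sets of monocyte genes 2 were higher in AKR/J F1 mice and 0 in DBA/2J F1 mice (median 0.20), and mean levels overlapped at 8.12 to 8.35 and 8.01 to 8.15. Of 24 probe sets of plasmacytoid dendritic cells, which carry Ly6c, 6 were higher in AKR/J F1 mice and 0 in DBA/2J F1 mice (median 0.30; mean levels 8.95 to 9.06 and 8.03 to 8.61). In DBA/2J F1 mice the lowest of these levels was that of DBA/2J replicate 3 (8.03), with 8.61 and 8.56 on the other arrays. DBA/2J replicate 3 was also the array with the low level of acinar genes (6.26). The part of acinar RNA in this list was not tested. Among the plasmacytoid dendritic cell genes Bst2 differed by 0.62 and Siglech by 0.60. Bst2 is also counted among the interferon response genes below. Plasma cell probe sets were split, with 7 of 32 higher in AKR/J F1 mice and 3 in DBA/2J F1 mice (median 0.16; mean levels 9.04 to 9.25 and 8.94 to 9.18). Of 17 endothelial probe sets, 2 were higher in AKR/J F1 mice, those of the receptors Tek (0.43) and Kdr (0.38), and 0 in DBA/2J F1 mice (median 0.11; mean levels 7.58 to 7.68 and 7.39 to 7.55). Of 13 probe sets of neutrophil genes, 0 passed in limma and 1 at an unadjusted p under 0.05 (1 passed with array weights and 2 without DBA/2J replicate 1; median -0.17, 0.21 without DBA/2J replicate 1 and -0.59 without DBA/2J replicate 3; mean levels 7.35 to 7.80 and 7.20 to 8.39), and Mmp9 had the smallest p of these (a difference of 0.55, adjusted p = 0.0640).

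Of 11 probe sets of precursor B cell genes, in which Ly6d marks early commitment, 1 passed, Igll1 of the surrogate light chain (-0.68), with a median of -0.012 that turned positive under some settings (-0.079 to 0.11) and mean levels of 5.56 to 5.70 and 5.71 to 5.81. Of 18 probe sets of stem and progenitor genes 1 passed in each direction, Meis1 (0.48) and, at a dim probe set, Mecom (-0.38), with a median of -0.062 and mean levels of 6.58 to 6.64 and 6.57 to 6.64. Stratified epithelium, in which Ly6d and Ly6k can be high, was represented by 12 genes of which 6 were dim, and the mean level was 4.19 to 4.21 and 4.17 to 4.25. In that list 2 of 23 probe sets were higher in AKR/J F1 mice and 1 in DBA/2J F1 mice. The median was -0.15, with 19 differences negative and 4 positive. Those higher in AKR/J F1 mice were Dsc3 (0.89), a desmosomal cadherin, and Krt10 (0.82).

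Without DBA/2J replicate 3, 7 T cell probe sets were higher in AKR/J F1 mice (median 0.39), as were 0 of B cells (median 0.27), 0 of monocytes (median 0.21), 6 of plasmacytoid dendritic cells (median 0.30), 4 of plasma cells (median 0.091), 1 of endothelial cells (median 0.14) and 2 of stratified epithelium (median -0.19). In that fit 11 erythroid probe sets and 1 of precursor B cells were higher in DBA/2J F1 mice, and 0 of stem and progenitor genes passed. The B cell and monocyte medians thus stayed positive while their counts past the threshold went to 0, and both medians were positive in all 12 alternatives (0.23 to 0.39 and 0.14 to 0.23). Other arrays moved these counts as well. T cell probe sets higher in AKR/J F1 mice numbered 6 without AKR/J replicate 1 or AKR/J replicate 3, 8 without AKR/J replicate 2 or DBA/2J replicate 2, and 12 without DBA/2J replicate 1. For B cells the count was 11 without DBA/2J replicate 1 and 0 without any other single array. For plasmacytoid dendritic cells it was 1 without AKR/J replicate 1, AKR/J replicate 3 or DBA/2J replicate 2 and 6 without any other. Plasma cells had 8 and 1 in the AKR/J F1 and DBA/2J F1 directions without DBA/2J replicate 1, 1 and 3 without AKR/J replicate 2, 1 and 0 without DBA/2J replicate 2, and 0 in both without AKR/J replicate 1 or AKR/J replicate 3. Monocytes had 4 without DBA/2J replicate 1, 1 without AKR/J replicate 3 and 0 without any other, and endothelial cells had 2 without DBA/2J replicate 1 and 0 without AKR/J replicate 1, 2 or 3 or DBA/2J replicate 2. Erythroid probe sets higher in DBA/2J F1 mice numbered 8 without AKR/J replicate 3 or DBA/2J replicate 2, 9 without AKR/J replicate 1, 13 without AKR/J replicate 2 and 14 without DBA/2J replicate 1.

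Interferon response genes, the programme to which Ly6e belongs, gave 15 of 43 probe sets higher in AKR/J F1 mice, 5 higher in DBA/2J F1 mice and 23 that did not pass (median 0.33). These counts were 4 and 4 without AKR/J replicate 1, 5 and 4 without AKR/J replicate 3, DBA/2J replicate 2 or DBA/2J replicate 3, 10 and 4 without AKR/J replicate 2 and 20 and 4 without DBA/2J replicate 1. Rtp4 differed by 0.80. The probe sets higher in DBA/2J F1 mice were those of Rsad2, which encodes viperin (-1.60, -1.74 and -1.52), Oas3 (-0.43) and Xaf1 at 1443621_at (-3.29). Xaf1 was higher in AKR/J F1 mice at its other probe set, 1443698_at (0.88). Both Ly6e probe sets had smaller differences than the median of 0.33. Genes that build and attach the GPI anchor, which most Ly6 proteins need to reach the surface, were called in both directions, 7 of 65 probe sets each (median 0.057). Those higher in AKR/J F1 mice numbered 2 whichever array was left out and 3 after quantile normalization. Those higher in DBA/2J F1 mice numbered 3 without AKR/J replicate 1 or AKR/J replicate 3, 5 without AKR/J replicate 2, 4 without DBA/2J replicate 2 or DBA/2J replicate 3, 9 without DBA/2J replicate 1 and 9 after quantile normalization. Pigo (0.83) and Pigx (0.58), which take part in anchor synthesis, were higher in AKR/J F1 mice. Gpaa1 (-0.90), of the transamidase, and Pigq (-1.13) were higher in DBA/2J F1 mice. These values are those of the gene's probe set with the smallest p. At another Pigo probe set (1415992_at) the difference was 0.098 and did not pass (adjusted p = 0.422 in limma). Of 23 probe sets of other GPI-anchored antigens of leukocytes, 4 were higher in each cross (median 0.21), with Izumo1r (0.50), a folate receptor relative of regulatory T cells, and Nt5e (0.57), the CD73 ectoenzyme, higher in AKR/J F1 mice and Cd24a (-1.21) and the folate receptor Folr2 (-0.49) higher in DBA/2J F1 mice. In the AKR/J F1 and DBA/2J F1 directions these counts were 1 and 3 without AKR/J replicate 1, 2 and 2 without AKR/J replicate 2, 2 and 4 without AKR/J replicate 3, 6 and 3 without DBA/2J replicate 1, 2 and 1 without DBA/2J replicate 2 and 1 and 2 without DBA/2J replicate 3.

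Genes most like each member over the 6 arrays were taken from 8205 probe sets with a single symbol, a mean above the dim level and a range of at least 0.5. Each member was represented by its probe set past the threshold, or by its brightest where none passed, so that Ly6k enters through its dim probe set and not through 1452855_at. Those nearest to the Ly6c1 and Ly6c2 probe set were Trp53bp1, Stx3 and Lhfp, each with Pearson's r of 0.997 to 0.999. For Ly6d they were Trim33, Ehd4 and Npnt (r = 0.996, 0.989 and 0.988), and for Ly6e at 1453304_s_at Rsph3a, Parp12 and Selenon (r = 0.994, 0.990 and 0.986). For the dim Ly6k probe set they were Prrt4, Defa39 and Whrn (r = 0.996 to 0.997). With 6 arrays in 2 groups and this many candidates, such values describe the arrays only.

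**Figure D4:**
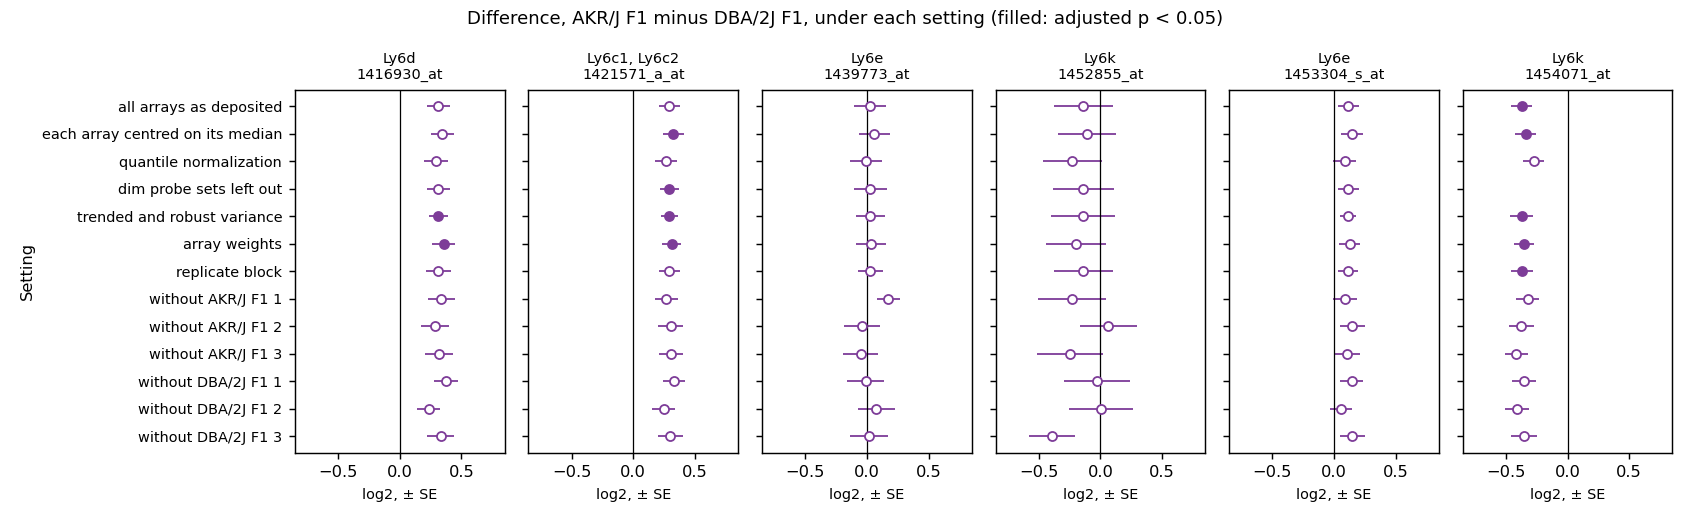
Difference of each Ly6 probe set (log2, AKR/J F1 minus DBA/2J F1, horizontal axis, ± SE) as deposited and under each alternative setting (vertical axis), filled where the adjusted p was below 0.05. Ly6d and the Ly6c1 and Ly6c2 probe set stay above 0 in every setting plotted, between 0.23 and 0.37 and between 0.25 and 0.33, and both Ly6e 1439773_at and Ly6k 1452855_at cross 0.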

How the data were processed

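Spleen RNA of 6 mice was measured on Affymetrix arrays. The values deposited by the authors are on a log2 scale, with array medians between 5.04 and 5.10. The tools RMA and MAS5 are listed, without a role, per the submitters' processing notes. A genome build was not given in the sources used here. Groups and replicate numbers came from the sample titles. Nothing says how the animals were housed or when arrays were run, so p-values measure the spread between these samples. Probes match a reference genome, and where a parent strain carries another base beneath a probe, signal can drop at an equal amount of RNA.

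Of 45101 probe sets, 64 Affymetrix controls were left out. Annotation gave 1 symbol to 34945 of the 45037 tested, several to 932 and none listed here to 9160. Each probe set was tested with limma 3.58.1 (lmFit and eBayes, R 4.3.3) over all 6 arrays with Benjamini-Hochberg adjustment and a threshold of 0.05, a procedure tested on simulated data. An exact permutation test of 3 against 3 cannot go below p = 0.1. The members and gene lists were chosen with earlier results of these data known. Lists are given by counts over their probe sets with 1 symbol and by the mean, per array, of each gene's brightest probe set.

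Genes were named by rule: all member probe sets, per list and among neighbours up to 4 called genes ranked by adjusted p (or the 1 with the smallest p), and the 3 genes most like each member. From those, examples are printed, and family genes below the threshold were added after their values were seen. Gene order came from the GRCm38.p6 annotation. Promoter windows were aligned with Biopython 1.88, with free end gaps. Alternatives were median centring, quantile normalization, leaving out dim probe sets, a trended and robust variance, a block for replicate number, array weights, dropping single arrays, and averaging the probe sets of a gene. For the cell type and pathway lists these settings were chosen after seeing the data.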

Additional observations from a re-analysis of the deposited data

How the results depend on the processing

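Of the 6 Ly6 probe sets, 1 passed as deposited, 2 with each array centred on its median, 0 after quantile normalization, 3 with a trended and robust variance, 3 with array weights and 0 whichever array was left out. For the other family genes the count was 3 as deposited, 5 with median centring, 5 with a trended and robust variance, 6 with array weights and 0 to 5 with 1 array left out. For neighbouring genes it was 1 as deposited, 3 with median centring, 4 after quantile normalization, 2 with dim probe sets left out, 4 with a trended and robust variance, 8 with array weights and 0 to 7 with 1 array left out. Over all probe sets it was 4688 as deposited, 4928 with median centring and 3191 after quantile normalization. It was 5091 with a trended and robust variance, 6570 with array weights, and 4417 of 27022 with dim probe sets left out. With 1 array left out it was 1001 to 4793, the lowest without AKR/J replicate 1 and the highest without DBA/2J replicate 1. The share of calls higher in AKR/J F1 mice was 49.4% as deposited and 61.9% with median centring. The smaller fits have fewer samples, and otherwise the cause was not tested. Ly6e at 1439773_at turned to -0.0037 after quantile normalization and ran from -0.051 to 0.17 with 1 array left out (-0.037, -0.051 and -0.011 where it turned), and Ly6k at 1452855_at ran from -0.39 to 0.065 (0.065 and 0.0061 where it turned). The Ly6c1 and Ly6c2, Ly6d and Ly6e 1453304_s_at differences kept their sign in all 12 alternatives to the fit as deposited, and that of Ly6k 1454071_at in all 11 that could be run. With the replicate number as a block, 1 Ly6 probe set and 4658 in all passed, and the block changed no call of a Ly6 probe set. Same-numbered arrays had correlations of 0.20, 0.11 and 0.045 between their deviations from the group means, and differently numbered arrays -0.16 to 0.056. These values do not settle whether the numbers pair the arrays. The labels name no pairing, and the fit as deposited used none. The arrays give no detection calls, which limits what can be said of dim probe sets.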
